A study of Mus musculus with 4 samples.

Results

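The 8 genes described here encode C-type lectin receptors of neutrophils and monocytes: Clec4d, Clec4e, Clec4n, Clec7a, Clec5a, Clec12a, Clec4a1 and Clec4a2. They were chosen by name, and all 8 were matched to a gene ID among the 55416 IDs of the count table. All 8 passed the count filter and are among the 16566 genes tested. The RNA, selected for poly(A) tails, came from myeloid-derived suppressor cells (MDSCs), a mix of immature cells resembling neutrophils and monocytes that build up with a growing tumor and hold back T cells. They were flow-sorted from ascitic fluid 14 days after mice were given the T cell lymphoma line EL4. One group of 2 libraries came from wild-type (WT) mice and the other group of 2 from Sphk2 knockout (Sphk2 KO) mice, which lack sphingosine kinase 2, one of the enzymes that make sphingosine 1-phosphate. All mice of both groups carried the tumor. Not given in the sources used here are the strain, age and sex of the mice, the knockout allele and the sort markers. The labels do not say whether a library is 1 mouse or a pool, so the p-values cover the spread between libraries, which may be technical.

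C-type lectin receptors are surface proteins with which myeloid cells bind sugars and lipids of microbes and products of dying cells. The activating receptors carry, or pair with an adaptor that carries, a tyrosine motif that recruits the kinase Syk, which acts through Card9, Bcl10 and Malt1 on NF-kB and cytokine genes. The inhibitory receptors carry a tyrosine motif that recruits the phosphatases encoded by Ptpn6 and Ptpn11. Both kinds are found on neutrophils and monocytes.

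The libraries held 14087613 to 24685576 counts. Sphk2 itself was low in the libraries labelled knockout, which had 57 and 100 counts of it against 1033 and 743 in the WT libraries. Markers fixed for neutrophils summed to 25171 and 32630 counts-per-million (CPM, scaled by the TMM factors of edgeR) in WT and to 38822 and 44004 CPM in Sphk2 KO. Monocyte markers summed to 2485 and 1603 CPM in WT and to 1560 and 973 CPM in Sphk2 KO. No marker of either list was at 0 in all libraries. The 7 defining genes of T cells and EL4 cells summed to 34.0 and 27.6 CPM in WT against 15.4 and 14.1 in Sphk2 KO. Of them 6 were lower at an unadjusted edgeR p under 0.05, which 10.5% of all tested genes reached in either direction. The 5 B cell markers summed to 417 and 424 CPM in WT against 324 and 206 in Sphk2 KO, and all 5 were lower at that p. Of these 12 genes edgeR called 0 after adjustment and DESeq2 called 1, a T cell gene. The part of these cells in the receptor values was not tested. In RNA from a bulk sort, fewer cells of a type and less RNA per cell cannot be told apart.

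None of the 8 receptor genes passed the test for a difference between the genotypes, and in 5 of them (Clec4d, Clec4e, Clec4n, Clec7a and Clec12a) libraries of the same genotype lay further apart than the genotype means. In Clec4d, Clec4e, Clec4n and Clec7a, replicate 2 exceeded replicate 1 by at least 1.5-fold in both WT and Sphk2 KO. Clec5a, Clec12a, Clec4a1 and Clec4a2 varied less between libraries. Clec4a1 had the only negative genotype difference of the 8. All of them lie on chromosome 6. In the order of the GENCODE M21 annotation, Clec4a1 opens a run of related genes, Clec4a2 lies in its middle, and Clec4n, Clec4d and Clec4e close it. Clec12a and Clec7a lie in a second run, and Clec5a lies apart.

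The sequences just upstream of 4 of these genes are shown because 3 of them, Clec4d, Clec4e and Clec7a, moved together between libraries while Clec4a1 did not. Each is the 250 bases before the RefSeq start site, in build GRCm38.p6, 5′ to 3′ on the strand of the gene. Capitals mark GAGGAA, the core of sites for the myeloid factor PU.1, and TTGCNNAA, a form of the C/EBP site, both searched on both strands. For Clec7a the more upstream of its RefSeq starts is used. Clec4n has no entry in the promoter table.
Clec4d (chr6:123261857-123262106, plus strand): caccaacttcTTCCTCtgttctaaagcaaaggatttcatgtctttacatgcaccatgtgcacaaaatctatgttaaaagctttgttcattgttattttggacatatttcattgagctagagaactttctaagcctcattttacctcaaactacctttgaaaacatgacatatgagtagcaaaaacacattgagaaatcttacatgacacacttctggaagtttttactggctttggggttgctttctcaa
Clec4e (chr6:123289872-123290121, minus strand): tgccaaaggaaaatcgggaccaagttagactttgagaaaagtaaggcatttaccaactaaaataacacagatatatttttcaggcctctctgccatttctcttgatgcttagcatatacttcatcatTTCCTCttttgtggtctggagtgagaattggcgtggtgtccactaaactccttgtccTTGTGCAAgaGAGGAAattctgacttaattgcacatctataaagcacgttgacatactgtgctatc
Clec7a (chr6:129472786-129473035, minus strand): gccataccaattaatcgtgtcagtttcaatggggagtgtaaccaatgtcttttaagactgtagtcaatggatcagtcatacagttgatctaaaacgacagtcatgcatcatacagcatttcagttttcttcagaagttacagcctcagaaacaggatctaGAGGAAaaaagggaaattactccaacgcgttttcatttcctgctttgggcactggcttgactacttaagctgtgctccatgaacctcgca
Clec4a1 (chr6:122921598-122921847, plus strand): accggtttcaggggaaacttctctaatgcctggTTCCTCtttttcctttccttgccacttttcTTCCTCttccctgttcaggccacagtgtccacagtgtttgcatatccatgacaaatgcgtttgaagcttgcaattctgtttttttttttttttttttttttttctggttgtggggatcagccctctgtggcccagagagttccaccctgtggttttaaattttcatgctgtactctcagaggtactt
Of the 7 genes with a RefSeq promoter, 6 held GAGGAA, against 23.3% of 32851 mouse promoters of the same length. The gene without it was Clec4a2. TTGCNNAA was found in 2 of the 7, Clec4e and Clec12a, against 9.56% of all promoters. In Clec4e it ends 59 bases before the start, 2 bases from a GAGGAA match that it does not overlap. A loose NF-kB consensus was found in 1 (Clec4a1, with overlapping matches on the 2 strands) against 45.8%, the AP-1 letters TGANTCA in 1 (Clec12a) against 6.75%, and the interferon-stimulated response element in 0 against 2.98%. The TATA box letters TATAAA were found in 3 against 12.4%. GAGGAA was thus found both in the genes that moved together and in Clec4a1, and a match describes the letters only.

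Per kilobase of exon, the scale on which genes can be compared, Clec7a was the most abundant of the 8, at 310 CPM per kilobase on average over the 4 libraries (200 to 413). Clec7a encodes dectin-1, the receptor of fungal beta-glucan. Clec4d averaged 253 CPM per kilobase (146 to 353), and Clec4e 120 (89.9 to 155). Clec4n averaged 61.5 CPM per kilobase (41.9 to 84.6). The ranges of Clec7a and Clec4d overlap, as do those of Clec4d and Clec4e, though the order of these 3 was the same within each library. Clec4e lay above Clec4n and Clec4n above the remaining genes without overlap. Clec5a (21.2), Clec4a1 (20.1), Clec4a2 (15.5) and Clec12a (12.6) followed with ranges that overlap their neighbors. With the longest transcript as the length, Clec12a moved to 21.5 and Clec4a2 to 18.2 CPM per kilobase, so the order of these last 4 genes is not settled.

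**Figure D1:**
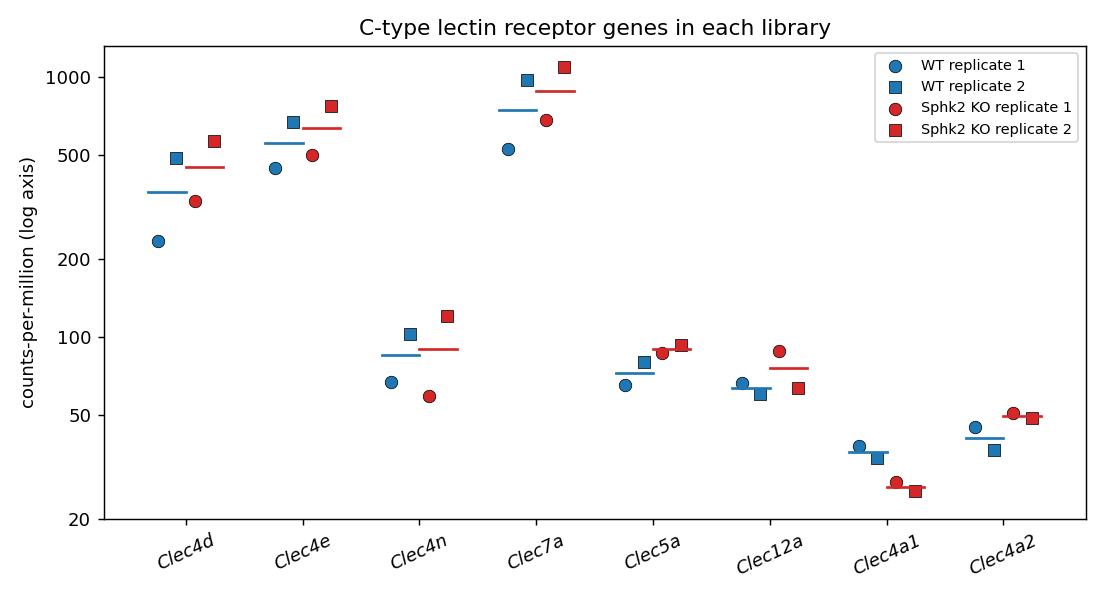
Counts-per-million (log axis) of the 8 receptor genes in each of the 4 libraries, with circles for replicate 1, squares for replicate 2 and a line at the mean of each genotype (n = 2). In Clec4d, Clec4e, Clec4n and Clec7a both squares lie above both circles, as with Clec7a at 968 and 1089 CPM against 528 and 682.

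Clec4e and Clec4d are neighbors whose products, Mincle and MCL, form a pair on the cell surface that binds mycobacterial glycolipid and signals through the adaptor Fcer1g. Clec4e had 446 and 671 CPM in WT replicates 1 and 2 and 499 and 770 CPM in Sphk2 KO replicates 1 and 2. The libraries of the genotypes interleave, with replicate 1 low and replicate 2 high in each. Its log2 fold change, Sphk2 KO over WT, was 0.18 (SE 0.289, edgeR adjusted p = 0.825). Clec4d had 233 and 486 CPM in WT against 333 and 565 in Sphk2 KO. These too interleave, and the WT mean of 360 ± 179 CPM and the Sphk2 KO mean of 449 ± 164 CPM (SD, n = 2 each) differ by less than their spread. Clec4d gave a log2 fold change of 0.32 (SE 0.367, edgeR adjusted p = 0.757).

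Clec4n, which encodes dectin-2, a receptor of fungal mannan that also uses Fcer1g, had 66.9 and 103 CPM in WT against 59.4 and 120 in Sphk2 KO. Its lowest and its highest library were both Sphk2 KO, and its log2 fold change was 0.09 (SE 0.322, edgeR adjusted p = 0.940). Clec7a needs no adaptor, because dectin-1 carries its own tyrosine motif. It had 528 and 968 CPM in WT against 682 and 1089 in Sphk2 KO. Its genotypes overlap as in Clec4d, with a log2 fold change of 0.24 (SE 0.345, 95% interval -0.55 to 1.04, edgeR adjusted p = 0.802). That interval runs from below 0 to above 1 log2 unit.

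Clec5a encodes MDL-1, a receptor that pairs with the adaptors Tyrobp and Hcst. It had 65.1 and 80.0 CPM in WT against 86.9 and 93.2 in Sphk2 KO, and each Sphk2 KO library lay above each WT library. Its mean was 72.5 ± 10.5 CPM in WT against 90.05 ± 4.46 in Sphk2 KO (SD, n = 2 each). The test was not passed (log2 fold change 0.31, SE 0.158, edgeR adjusted p = 0.520).

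Of the inhibitory receptors, Clec12a encodes MICL, a brake on neutrophil activation that binds uric acid crystals. It had 66.4 and 60.3 CPM in WT against 88.1 and 63.6 in Sphk2 KO, where replicate 1 alone stood apart. Its log2 fold change was 0.26 (SE 0.184, edgeR adjusted p = 0.637). Clec4a2 encodes DCIR, the inhibitory lectin of dendritic cells and other myeloid cells, and had 44.8 and 36.7 CPM in WT against 51.0 and 48.6 in Sphk2 KO. Its groups did not overlap, and the log2 fold change of 0.29 (SE 0.162, edgeR adjusted p = 0.552) missed the threshold. Of the 75-base sequences of its transcripts 3.24% also occur in Clec4a4 or Clec4b1, and it overlaps Gm44132 on its own strand, so its counts are slightly uncertain. The other 7 genes share no such sequence and overlap no annotated gene.

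Clec4a1 belongs to the DCIR family as well. It had 38.1 and 34.3 CPM in WT against 27.5 and 25.5 in Sphk2 KO, and each Sphk2 KO library lay below each WT library. Its mean was 36.2 ± 2.65 CPM in WT against 26.5 ± 1.42 in Sphk2 KO (SD, n = 2 each), a log2 fold change of -0.45 (SE 0.164, 95% interval -0.83 to -0.07). The unadjusted p was 0.0247 and the edgeR adjusted p 0.425, so it did not pass over all genes. Monocyte markers moved the same way: 8 of 9 had negative log2 fold changes (median -0.76, 0 called by edgeR or DESeq2). At an unadjusted p under 0.05, 4 of the 9 were lower, against 10.5% of all tested genes in either direction. The part of these markers in the value of Clec4a1 was not tested.

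As a set, 0 of the 8 genes were called by edgeR, where 0.109% of all tested genes were called. At an unadjusted p under 0.05 it was 1 of 8 (Clec4a1), against 10.5% of all tested genes. DESeq2 called 0 of the 8 and 0.477% of all genes, and limma-voom 0 of the 8 and 0.115%. The groups did not overlap in 3 of 8 (Clec5a and Clec4a2 higher, Clec4a1 lower in Sphk2 KO), where 43.2% of all tested genes had groups that do not overlap, 20.4% higher and 22.7% lower in Sphk2 KO. Of the 8 log2 fold changes, 7 were positive, with a median of 0.25, beside a median of 0.00 over all tested genes, 49.9% of which were positive. Neutrophil markers had positive values in 13 of 13 genes (median 0.41, 4 higher at an unadjusted p under 0.05, 0 called by edgeR and 2 by DESeq2), and their part in the median of the receptor genes was not tested.

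**Figure D2:**
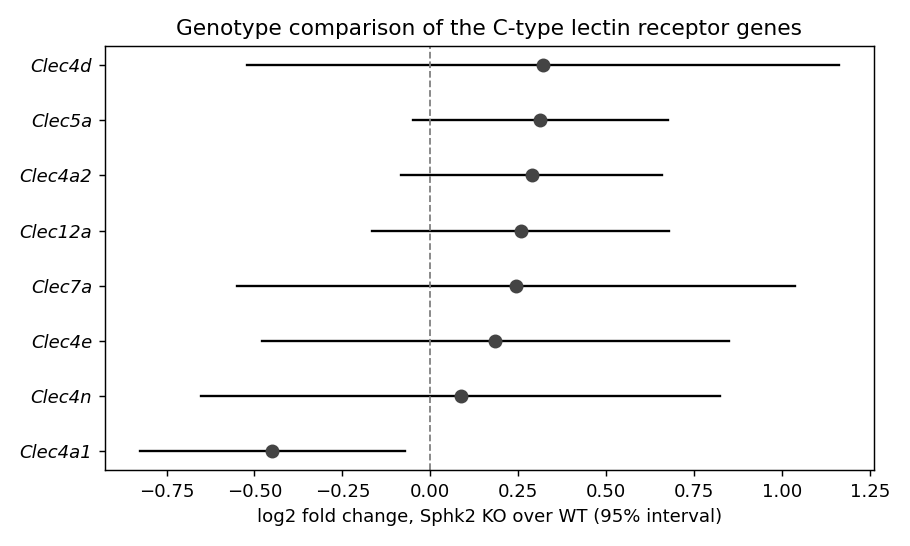
Log2 fold change of each receptor gene, Sphk2 KO over WT, from the edgeR fit of all 4 libraries, with its 95% interval before adjustment for the number of genes. The interval of Clec4a1 (-0.83 to -0.07) lies below 0 and the other 7 intervals cross it.

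The positive direction of 5 genes rested on single libraries. Without WT replicate 1, the lowest library for Clec4d, Clec4e and Clec7a, the log2 fold changes became -0.13 in Clec4d, -0.09 in Clec4e, -0.21 in Clec4n and -0.14 in Clec7a. Without Sphk2 KO replicate 2, the highest library for all 4, they became -0.11, -0.16, -0.51 and -0.13 in the same order. The median of the 8 genes was then -0.11 and -0.12. Clec12a, whose highest library was Sphk2 KO replicate 1, came to -0.0013 without it. Without WT replicate 2, Clec4d reached 0.96 and was called (edgeR adjusted p = 0.0172), 1 of 8 receptor genes where 5.93% of all genes were called. Clec5a, Clec4a2 and Clec4a1 kept their direction in each of these fits, with Clec4a1 between -0.51 and -0.38. In these genes the groups do not overlap, as in 43.2% of all tested genes, so leaving out a library could hardly reverse them.

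**Figure D3:**
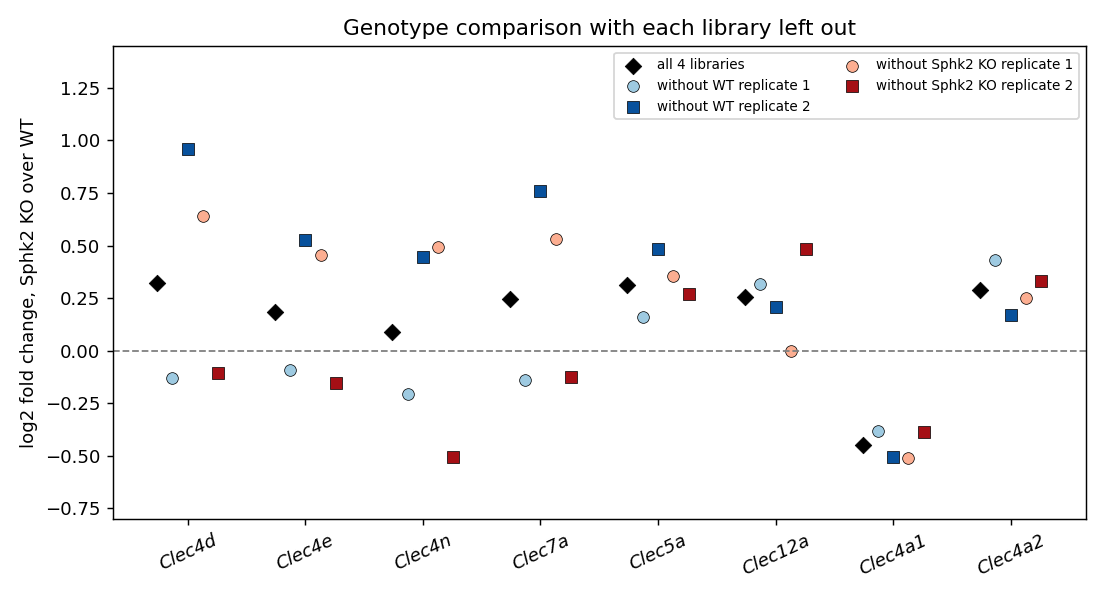
Log2 fold change of each receptor gene, Sphk2 KO over WT, with all 4 libraries (diamonds) and with each library left out. Clec4d, Clec4e, Clec4n and Clec7a fall below 0 without WT replicate 1 or Sphk2 KO replicate 2, while Clec4a1 stays below 0 and Clec5a and Clec4a2 above it. In Clec4a1, Clec5a and Clec4a2 the groups do not overlap, so leaving out a library could hardly change the direction.

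The difference between libraries of a genotype had the same shape in WT and Sphk2 KO. In Clec4d, replicate 2 was 2.08-fold above replicate 1 in WT and 1.70-fold in Sphk2 KO. Clec7a gave ratios of 1.83 and 1.60, Clec4e 1.504 and 1.54, and Clec4n 1.54 and 2.02. These 4 of 8 genes stand beside 2.7% of all tested genes in which replicate 2 was at least 1.5-fold higher in both genotypes, a limit chosen after the values were seen. With no limit on the size, 5 of 8 receptor genes were higher in replicate 2 of both genotypes (32.8% of all tested genes) and 3 of 8 lower (37.5%). The remaining genes lay closer to 1: Clec5a gave 1.23 and 1.07, Clec4a1 0.90 and 0.93, Clec4a2 0.82 and 0.95, and Clec12a 0.91 and 0.72. The labels do not say that equal replicate numbers share a day or batch.

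**Figure D4:**
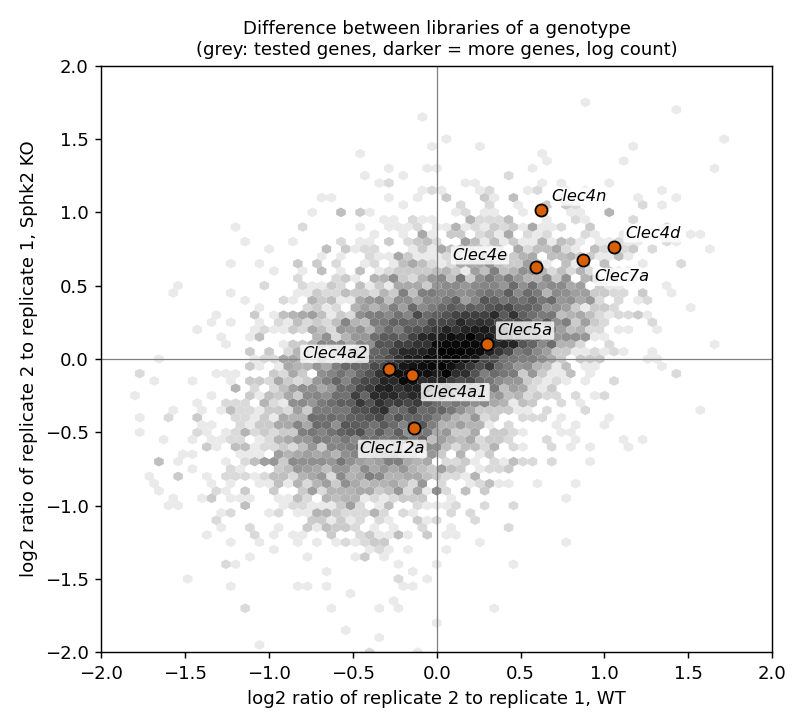
Log2 ratio of replicate 2 to replicate 1 in WT (horizontal) and in Sphk2 KO (vertical) for the 8 receptor genes (orange) over all tested genes with counts in every library (grey, darker where more genes lie, a few genes beyond the axes not shown). Clec4d, Clec4e, Clec4n and Clec7a lie together at the upper right and the other 4 near the center.

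Markers of other cells moved with this difference. All 4 markers of neutrophil precursors (Elane, Mpo, Prtn3 and Ctsg) were at least 1.5-fold lower in replicate 2 of both genotypes, and their summed level was 217 and 57.9 CPM in WT replicates 1 and 2 and 82.3 and 30.5 CPM in Sphk2 KO replicates 1 and 2. The monocyte genes Ccr2, Fn1 and F13a1, 3 of 9 on their list, were lower by at least 1.5-fold as well. So were 4 of the 7 T cell genes (Cd3g, Cd28, Trac and Thy1), all at low CPM, while 1, Cd3d, was higher by that ratio. The share of all tested genes lower by that ratio in both genotypes was not computed, so these counts have no baseline. Of the 13 neutrophil markers 0 were higher by that ratio in both genotypes. With no limit on the size, 8 of the 13 were higher in replicate 2 of both genotypes and 4 lower (32.8% and 37.5% of all tested genes). On the same count all 4 precursor, 7 of 9 monocyte and 6 of 7 T cell genes were lower, and 1 monocyte and 1 T cell gene higher. Between the genotypes, all 4 precursor markers had negative log2 fold changes (median -1.28, 0 called by edgeR or DESeq2). At an unadjusted p under 0.05, 2 of the 4 were lower, against 10.5% of all tested genes in either direction. The part of these cells in the receptor levels was not tested.

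Among the inflammatory genes that lie downstream of these receptors, 10 of 11 tested were higher in replicate 2 of both genotypes, against 32.8% of all tested genes. Cxcl1 and Ptgs2 were higher by at least 1.5-fold, though Cxcl1 had only 9 to 28 counts in a library. Of 14 genes of the activating signaling chain, taken up below, 10 were higher in replicate 2 of both genotypes as well. Il1b, with the highest CPM of the list, had 3934 and 5959 CPM in WT against 4605 and 5758 in Sphk2 KO. Cxcl2, a neutrophil chemokine, had 502 and 968 CPM in WT against 560 and 770 in Sphk2 KO. Between the genotypes edgeR and DESeq2 called 0 of the 11, 0 had an unadjusted p under 0.05, 5 had positive and 6 negative values, and the median log2 fold change was -0.14. Ccl3, a chemokine, had the highest value at 0.33 (SE 0.324, edgeR adjusted p = 0.720; 1.01 and called without WT replicate 2, edgeR adjusted p = 0.00783), and Ptgs2, the inducible cyclooxygenase, the lowest at -0.18 among those with at least 5 CPM. Il12b had 0 counts in all libraries, and Csf2 was below the count filter.

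None of the genes of the activating signaling chain passed the test: edgeR called 0 of 14, DESeq2 also 0, and 0 had an unadjusted p under 0.05. Of these 14 log2 fold changes 13 were positive, with a median of 0.25, the same as for the receptors. Syk, the kinase that all the activating receptors use, had 1511 and 2025 CPM in WT against 1903 and 2101 in Sphk2 KO (a log2 fold change of 0.18). Fgr, a Src-family kinase, gave the same value of 0.18. Hcst, an adaptor of MDL-1, had 26.5 and 38.9 CPM in WT against 40.1 and 49.96 in Sphk2 KO, the highest log2 fold change of the list at 0.47 (edgeR adjusted p = 0.489; 0.78 and called without WT replicate 2, edgeR adjusted p = 0.0439). Malt1, the protease that acts with Card9 and Bcl10, had the only negative value, with 200 and 202 CPM in WT against 169 and 171 in Sphk2 KO (-0.24, edgeR adjusted p = 0.594).

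Of the 4 genes of the inhibitory arm edgeR called 0 and DESeq2 1, Cblb. Cblb was also the 1 gene of the 4 at an unadjusted p under 0.05, against 10.5% of all tested genes in either direction. The median log2 fold change of the 4 was 0.08. Ptpn6, which encodes the phosphatase SHP-1, gave 0.24 (edgeR adjusted p = 0.690) and Inpp5d, the lipid phosphatase SHIP, 0.07. Cblb, a ubiquitin ligase that marks activated dectin receptors and Syk for breakdown, had 65.9 and 49.1 CPM in WT against 33.0 and 25.1 in Sphk2 KO. Its log2 fold change was -0.99 (SE 0.206), with an unadjusted p of 0.00122 and an edgeR adjusted p of 0.252, which misses the threshold. The call depended on the method and the libraries: DESeq2 called Cblb lower (-0.97, adjusted p = 0.0386), as did edgeR without the count filter (-0.99, adjusted p = 0.000483), without WT replicate 2 (-1.17, adjusted p = 0.0019) and without Sphk2 KO replicate 1 (-1.20, adjusted p = 0.00284). Without WT replicate 1 it was -0.77 (edgeR adjusted p = 0.313) and without Sphk2 KO replicate 2 it was -0.80 (edgeR adjusted p = 0.549).

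Of 10 transcription factors that act after these receptors, edgeR and DESeq2 called 0, and 6 had positive values (median 0.07). At an unadjusted p under 0.05, 2 of the 10 were lower, against 10.5% of all tested genes in either direction. Egr1, an early-response factor, had 1035 and 1292 CPM in WT against 1434 and 1326 in Sphk2 KO, at a log2 fold change of 0.25. Nfatc1 gave 0.25 as well, and Egr2 the highest value at 0.39 (edgeR adjusted p = 0.554). Nfatc2, a factor activated by calcium, had the lowest value, -0.56, at 17.8 and 16.8 CPM in WT against 13.5 and 10.1 in Sphk2 KO (edgeR adjusted p = 0.447).

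Other C-type lectin genes took fewer of the counts. The 24 on the list summed to 341 to 372 CPM in a library, against 1489 to 2776 CPM for the 8 receptors. Of these, 17 were tested, edgeR and DESeq2 called 0 and 0 had an unadjusted p under 0.05, with a median log2 fold change of 0.06, and Clec4f, Cd209b and Clec14a had 0 counts. Clec2d, with the highest CPM, had 56.1 and 89.3 CPM in WT against 64.5 and 112 in Sphk2 KO, and was the 1 gene of the 17 with replicate 2 at least 1.5-fold higher in both genotypes. Ly75, an endocytic receptor of dendritic cells, had 70.2 and 46.8 CPM in WT against 78.0 and 57.9 in Sphk2 KO. Clec2i gave -0.60 (edgeR adjusted p = 0.472), with 19.5 and 17.1 CPM in WT against 15.1 and 9.16 in Sphk2 KO. Clec4a3, the next gene to Clec4a1 and named after its value was seen, gave -0.37 (SE 0.161, edgeR adjusted p = 0.472).

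**Figure D5:**
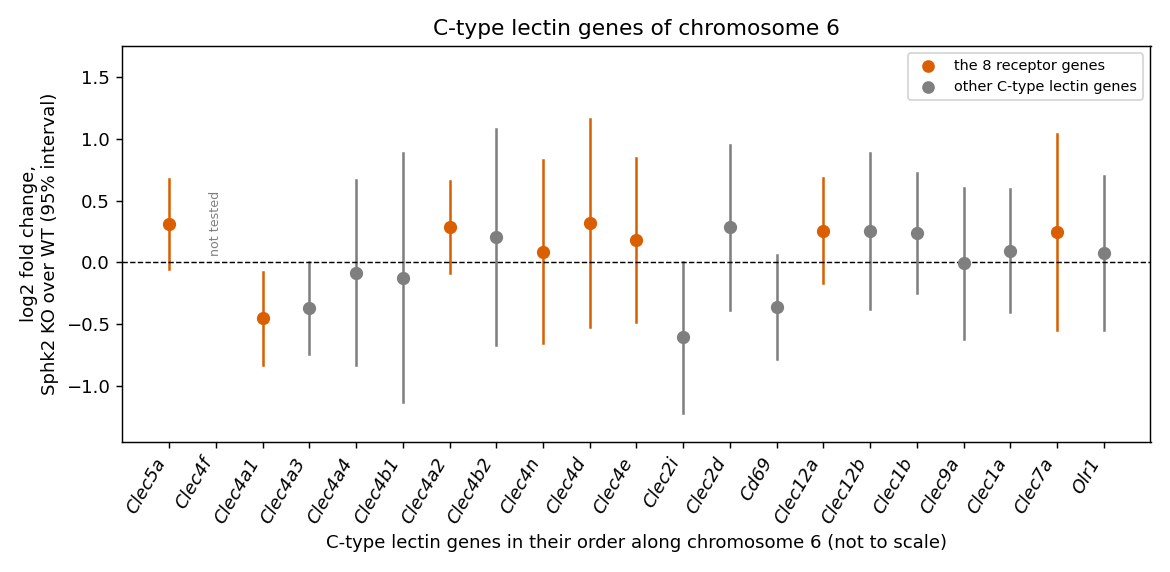
Log2 fold change, Sphk2 KO over WT, with its 95% interval before adjustment, for C-type lectin genes in their order along chromosome 6 (not to scale). Clec4a1 (-0.45) and its neighbor Clec4a3 (-0.37) lie below 0 and Clec4n, Clec4d and Clec4e, at the other end of the run, lie at 0.09 to 0.32 with wide intervals.

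Likeness of pattern was measured as the Euclidean distance between log2 CPM values centered on each gene's mean, over 4 libraries, for 5441 other genes that averaged 20 CPM or more. The genes nearest to the average of the 8 receptors were Rbm12 (distance 0.013), Rmnd5a, Fcho2, Dazap2 and Brwd3 (0.0272), where the median distance was 0.368. That average joins receptor genes of unlike pattern, with Clec4d and Clec4a1 at a distance of 1.33 from each other. Nearest to Clec4d, the receptor gene with the highest log2 fold change, were Mirt2 (0.0912), Il15 (0.153) and Gadd45a (0.165), where the median distance was 0.926. Mirt2 had 45.5 and 99.9 CPM in WT against 62.5 and 112 in Sphk2 KO, the order of libraries seen in Clec4d. Nearest to Clec4a1, where the median distance was 0.617, were Hnrnpr (0.0314), Erap1 (0.0343) and Tm9sf1 (0.0563). Each of them was lower in both Sphk2 KO libraries than in either WT library, as were 22.7% of all tested genes. Genes picked for nearness tend to share the order of libraries, here as with Mirt2, so that order is no separate result. A distance over 4 libraries rests on few values.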

How the data were processed

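The authors deposited raw counts per Ensembl gene ID, 1 column per library. Per the labels' protocols, 250 ng of total RNA (RINe 9.7 to 10) was poly(A)-selected for a directional paired-end library. Trim Galore, STAR, featureCounts, DESeq2 and build GRCm39 are named in the submitters' processing notes. Not given in the sources used here are the versions, the annotation release and the strand setting. Whether the counts separate reads of overlapping genes on opposite strands is therefore not known. Symbols were matched to 94% of IDs. All 4 libraries were fitted with edgeR 4.0.16 in R 4.3.3 (filterByExpr, TMM, quasi-likelihood test, genotype as the only term), with Benjamini-Hochberg adjustment over 16566 genes and a threshold of 0.05. A standard error is the log2 fold change divided by the square root of F. Log2 CPM used a prior count of 2. The script was tested on simulated data.

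Members and lists were chosen with earlier results of these data known. From each pathway list, the 2 most abundant genes and the highest and lowest log2 fold change at a mean of at least 5 CPM are named. Exon lengths, gene order and shared 75-base sequences came from GENCODE M21 (GRCm38), which is not the build of the counts, and promoters from RefSeq. Alternatives were DESeq2 1.42.0, limma-voom (limma 3.58.1), other scalings and filters (the stricter one at least 1 CPM in 2 libraries and 100 counts), robust empirical Bayes, a replicate block and each library left out. Replicates were no duplicates: chi-square per degree of freedom was 18.3 between the WT libraries and 12.1 between the Sphk2 KO libraries.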

Additional observations from a re-analysis of the deposited data

How the results depend on the processing

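With 2 libraries a group, intervals on the receptor genes are wide. The 18 genes called over the whole table became 79 with DESeq2, 615 without the count filter, and 54 to 1061 with a library left out; no receptor gene was among the calls of DESeq2 or of the unfiltered fit, and leaving out a library gave 0 to 1 of the 8. With the replicate number as a replicate block, 2637 genes (15.9%) and 2 of the 8 receptors were called, Clec5a at 0.32 (edgeR adjusted p = 0.0437) and Clec4a1 at -0.45 (edgeR adjusted p = 0.00634). The numbers share no stated batch, and deviations of same-numbered libraries correlated at 0.438 across genes, so this pairing is only a hint from the data. With that block edgeR also called genes of the activating chain, among them Hcst and Bcl10 (higher), and Cblb of the inhibitory arm (lower). It called 3 of 10 transcription factors (Egr2 higher, Nfatc2 and Irf5 lower), Ccl3 of the 11 outputs (higher) and 4 of 17 other lectins (lower). Of the markers, all 4 neutrophil precursor, 7 of 9 monocyte, all 5 B cell and 6 of 7 T cell genes were called lower, against 10.2% of all tested genes. Neutrophil markers were called higher in 4 of 13, against 5.75% of all tested genes. Without WT replicate 2, edgeR called Irf5 (-0.67, adjusted p = 0.0496), 5 monocyte markers lower and 5 neutrophil markers higher. Clec10a, with only 17 to 69 counts in a library, had a log2 fold change of -1.12 in the main fit. Without Sphk2 KO replicate 1 it came to -2.12. The marker medians were then -1.36 for monocytes, -2.05 for neutrophil precursors, -1.02 for B cells and -1.97 for T cells. Without the count filter, edgeR called 5 monocyte, 4 neutrophil precursor, 2 B cell and 3 T cell markers lower and 3 neutrophil markers higher. In that fit 1.58% of all genes were called lower and 0.488% higher. Library size alone moved the median of all genes to -0.17 and that of the receptors to 0.09, and Clec4n to -0.0801. The median of the receptors was -0.12 to 0.46 with a library left out. Left-out values ran from -0.13 to 0.96 in Clec4d, -0.16 to 0.52 in Clec4e, -0.51 to 0.49 in Clec4n, -0.14 to 0.76 in Clec7a and -0.0013 to 0.48 in Clec12a. These ranges cross 0, and the cause was not tested. Clec5a, Clec4a1 and Clec4a2 kept their direction under all 12 alternatives. Their groups do not overlap, so the fits with a library left out could hardly have reversed them.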
